A study of Mus musculus with 10 samples.

Results

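Cholesterol homeostasis was followed through 32 named genes in the inguinal mammary fat pad, a subcutaneous depot that also holds mammary epithelium. All 32 symbols were found among the 30319 gene symbols of the deposited table, and all 32 were among the 16932 genes tested. They were listed by function and not by level. They comprise 18 enzymes of the route from acetyl-CoA to cholesterol (the synthesis arm) and 5 genes around sterol-driven export (the efflux arm). The efflux arm holds the exporter genes Abca1 and Abcg1, the nuclear receptor genes Nr1h2 and Nr1h3, and the ligase gene Mylip. The others are 4 genes that control the transcription factor SREBP2, and 5 genes of the isoprenoid branch and of sterol handling. Total RNA depleted of ribosomal RNA came from female FVB mice that ate matched diets from 12 to 30 weeks of age. The groups were wild type with 10% of energy from fat (WT_LFD, n = 2), FAP-/- with 10% (Null_LFD, n = 3), wild type with 60% (WT_HFD, n = 2) and FAP-/- with 60% (Null_HFD, n = 3). FAP, or fibroblast activation protein, is a serine protease on the surface of stromal cells, and the labels do not say which part of its gene is disrupted. The design text calls the samples biological replicates, without saying whether a library is 1 animal.

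Cells make cholesterol from acetyl-CoA through mevalonate, isoprenoid diphosphates, squalene and lanosterol. When sterol is scarce in the endoplasmic reticulum, the escort protein SCAP carries SREBP2 to the Golgi, where it is cut and released to switch on the synthesis genes and the uptake of lipoproteins. When sterol is plentiful, INSIG proteins hold SCAP back, and oxysterols activate the nuclear receptors LXR-alpha and LXR-beta, which drive the exporters ABCA1 and ABCG1 and the ligase MYLIP that removes lipoprotein receptors. Adipocytes store a large pool of free cholesterol on the surface of their lipid droplets, and macrophages rely on the LXR exporters.

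Mature adipocyte markers summed to between 9836 TPM (Null_HFD 3) and 24268 TPM (Null_HFD 2), and all 8 were present in every library. WT_HFD 2 and Null_HFD 3 stood apart, with 8 lymph node markers summing to 694 and 1733 TPM against 9.45 to 30.7 TPM in the other 8 libraries. In those 2 libraries 8 skeletal muscle markers summed to 194 and 91.4 TPM, against 1780 to 8820 TPM elsewhere. Luminal epithelial markers summed to 351 and 938 TPM in WT_LFD, 1219 to 2917 TPM in Null_LFD, 1023 and 1381 TPM in WT_HFD and 286 to 928 TPM in Null_HFD, with Wap listed at 0 in 4 libraries and Csn2 in 1. The 7 macrophage markers found in the table, of 8 listed, ran from 511 and 556 TPM in WT_LFD through 573 to 847 TPM in Null_LFD and 621 and 897 TPM in WT_HFD to 667 to 1789 TPM in Null_HFD. The sum in Null_HFD 3 was mostly Lyz2 (1510 TPM). Lyz2, Cd68 and Csf1r were at their highest in that library, and Mrc1 (60.5 TPM) and Cd163 (11.6 TPM) at their lowest. Trem2 and Gpnmb were highest in Null_HFD 2. The Fap transcript separated the genotypes on the low-fat diet (39.2 and 45.4 TPM in WT_LFD, 18.3 to 22.4 TPM in Null_LFD) and overlapped on the high-fat diet (37.7 and 68.8 TPM in WT_HFD, 22.3 to 38.4 TPM in Null_HFD). With the disrupted part unknown, it is only a partial check of the labels. The median difference over all genes was 0.15 between genotypes on the low-fat diet, 0.20 between diets in wild type, 0.11 between diets over both genotypes and -0.13 for the interaction (log2 scale), and it was within 0.1 of 0 in the other comparisons. Depth is unknown, because TPM, a length-normalised share of the transcripts in a library, keeps no read numbers. In a whole fat pad, fewer cells of a type and less RNA per cell cannot be told apart.

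The promoters of the genes on which the results turn are shown first, because the synthesis arm is textbook SREBP2 territory, where SREBP2 acts beside the promoter factors NF-Y and Sp1. RefSeq windows (build GRCm38.p6) from 250 bases before to 50 bases after the start site were found for 26 of the 32 genes, in 33 windows. Capitals mark any match, on either strand, to TCACNCCAC (the core of a sterol regulatory element), CCAAT (NF-Y) or GGGCGG (Sp1), and matches to different motifs did not overlap in these windows.
Hmgcs1 promoter, chr13:119690101-119690400, plus strand: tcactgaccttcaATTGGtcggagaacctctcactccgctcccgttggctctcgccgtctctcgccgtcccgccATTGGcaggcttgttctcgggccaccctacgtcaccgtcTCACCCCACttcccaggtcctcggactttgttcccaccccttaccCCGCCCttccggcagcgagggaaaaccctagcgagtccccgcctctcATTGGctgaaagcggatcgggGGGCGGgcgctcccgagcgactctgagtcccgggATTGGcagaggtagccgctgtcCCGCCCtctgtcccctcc
Insig1 promoter, chr5:28071162-28071461, plus strand: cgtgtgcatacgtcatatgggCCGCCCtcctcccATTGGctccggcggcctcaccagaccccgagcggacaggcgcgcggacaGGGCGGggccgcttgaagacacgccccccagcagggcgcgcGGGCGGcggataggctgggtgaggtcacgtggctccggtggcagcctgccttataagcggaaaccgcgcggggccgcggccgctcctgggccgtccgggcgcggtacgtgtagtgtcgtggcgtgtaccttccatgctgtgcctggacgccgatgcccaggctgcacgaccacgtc
Msmo1 promoter, chr8:64733529-64733828, minus strand: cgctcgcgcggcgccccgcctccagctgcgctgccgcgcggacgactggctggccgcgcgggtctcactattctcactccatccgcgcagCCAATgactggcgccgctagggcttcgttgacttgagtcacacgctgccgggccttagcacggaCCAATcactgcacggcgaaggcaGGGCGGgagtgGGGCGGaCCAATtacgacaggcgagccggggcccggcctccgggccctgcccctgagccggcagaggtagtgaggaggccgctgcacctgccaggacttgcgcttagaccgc
Acat2 promoter, chr17:12960676-12960975, minus strand: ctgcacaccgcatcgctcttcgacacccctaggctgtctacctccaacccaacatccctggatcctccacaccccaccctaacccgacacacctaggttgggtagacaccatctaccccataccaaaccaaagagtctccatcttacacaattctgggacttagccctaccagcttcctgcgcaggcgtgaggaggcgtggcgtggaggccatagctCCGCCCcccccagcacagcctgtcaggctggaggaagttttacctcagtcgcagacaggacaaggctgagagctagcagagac
Abca1 promoter, chr4:53159846-53160145, minus strand: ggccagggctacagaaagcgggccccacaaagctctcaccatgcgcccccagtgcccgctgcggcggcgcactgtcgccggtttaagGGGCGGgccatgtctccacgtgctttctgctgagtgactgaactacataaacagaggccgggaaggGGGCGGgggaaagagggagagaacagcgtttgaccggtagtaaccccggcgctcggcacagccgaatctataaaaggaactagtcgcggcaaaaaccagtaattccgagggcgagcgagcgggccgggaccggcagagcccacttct

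TCACNCCAC occurred in 1 of the 33 windows, that of Hmgcs1, where TCACCCCAC starts 137 bases before the start site. It occurred in 1.15% of the 14282 windows of genes tested and in 1.24% of all 32851 windows. The absence of TCACNCCAC from the other windows does not show that they lack a sterol regulatory element with other letters. CCAAT was found in 14 of the 18 synthesis windows (77.8%), against 37.2% of windows of genes tested and 37.4% of all windows. Acat2 was the 1 synthesis gene of 15 with a window that lacked it. GGGCGG was found in 15 of the 18 synthesis windows (83.3%), against 58% and 35.7%. Of the 5 efflux windows, 1 held CCAAT (Mylip) and 2 held GGGCGG (Abca1 and Mylip). The direct repeat bound by LXR, searched as 2 exact copies of AGGTCA spaced by 4 bases, occurred in 0 of the 33 windows and in 0.0152% of all windows. An exact repeat this rare was unlikely to occur in 33 windows. Its absence does not show that they, that of Abca1 included, lack an LXR site with other letters. These are matches of letters in short windows of the reference genome and no measure of binding.

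No gene of the 32 passed the test in any of the 7 comparisons, so the differences that follow are given as values. The limma test called 0 of 32 members, and 0% of the 16932 genes, for genotype averaged over the diets, genotype on the low-fat diet, diet averaged over the genotypes, diet in wild type and the interaction. It called 0 of 32 members against 0.0118% of all genes for genotype on the high-fat diet, and 0 of 32 against 0.00591% for diet in FAP-/- pads. The members with an unadjusted p under 0.05 numbered 1 for averaged genotype (of 709 genes in all), 4 for genotype on the low-fat diet (of 750) and 3 on the high-fat diet (of 647). For diet they numbered 8 on average (of 1641), 9 in wild type (of 950) and 2 in FAP-/- (of 1129), and in the interaction 6 (of 701). With 2 and 3 libraries a group, the test over all genes did not separate any of the 32 from the spread between replicates.

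The synthesis enzymes lay lower on the high-fat than on the low-fat diet in wild-type pads and on both sides of 0 in FAP-/- pads, with no gene called. In wild type all 18 enzymes had lower means of log2(TPM + 1) on the high-fat diet, with Hsd17b7 at practically no difference (4.55 and 9.56 against 6.13 and 7.27 TPM), and the median difference was -0.99, while 67.1% of all genes tested had higher means (median 0.20). In FAP-/- pads 11 of 18 were higher and 7 lower (median 0.12, all genes 0.04), and 54.9% of all genes were higher. The interaction, which is the diet difference in FAP-/- minus that in wild type, was above 0 for 18 of 18 enzymes with a median of 1.00, against a median of -0.13 and 38.2% of all genes. The 2 WT_HFD libraries lay below both WT_LFD libraries for 12 of the 18 enzymes (Hmgcs1, Mvk, Mvd, Idi1, Fdft1, Sqle, Lss, Cyp51, Msmo1, Nsdhl, Sc5d and Acat2) and above both for none, where 11.5% of all genes lay wholly lower and 33.7% wholly higher. In FAP-/- pads Hmgcs1 alone separated the diets, higher on the high-fat diet, against 6.6% of all genes wholly higher and 4.49% wholly lower. The WT_LFD 1 library stood highest, since 14 of the 18 enzymes had their highest value of all 10 libraries there. Without WT_LFD 1 the wild-type median was -0.48 with 15 of 18 lower, and the interaction median 0.58 with 15 of 18 above 0. Without WT_LFD 2, WT_HFD 2 or both WT_HFD 2 and Null_HFD 3 the wild-type median was -1.46, -0.62 and -0.62, and the interaction median 1.48, 0.75 and 0.81. The FAP-/- median was 0.01, -0.10 and 0.27 without each Null_LFD library in turn, and -0.02 and 0.02 without Null_HFD 2 and 3, so that its sign differed with the library left out. Mature adipocyte markers summed to 15922 TPM in WT_LFD 1 and 22312 TPM in WT_LFD 2 and to 16406 and 17854 TPM in WT_HFD, so the groups overlapped in these markers, as they did in those of skeletal muscle. Markers of luminal epithelium (351 and 938 against 1023 and 1381 TPM), macrophages (511 and 556 against 621 and 897 TPM) and lymph node (9.45 and 13.2 against 19.4 and 694 TPM) were all higher in both WT_HFD libraries than in both WT_LFD libraries. Genes of the mitochondrial genome held 10.6% and 13.8% of TPM in WT_LFD, against 9.76% and 5.91% in WT_HFD. The part of these markers and of the mitochondrial share in the result was not tested.

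**Figure D1:**
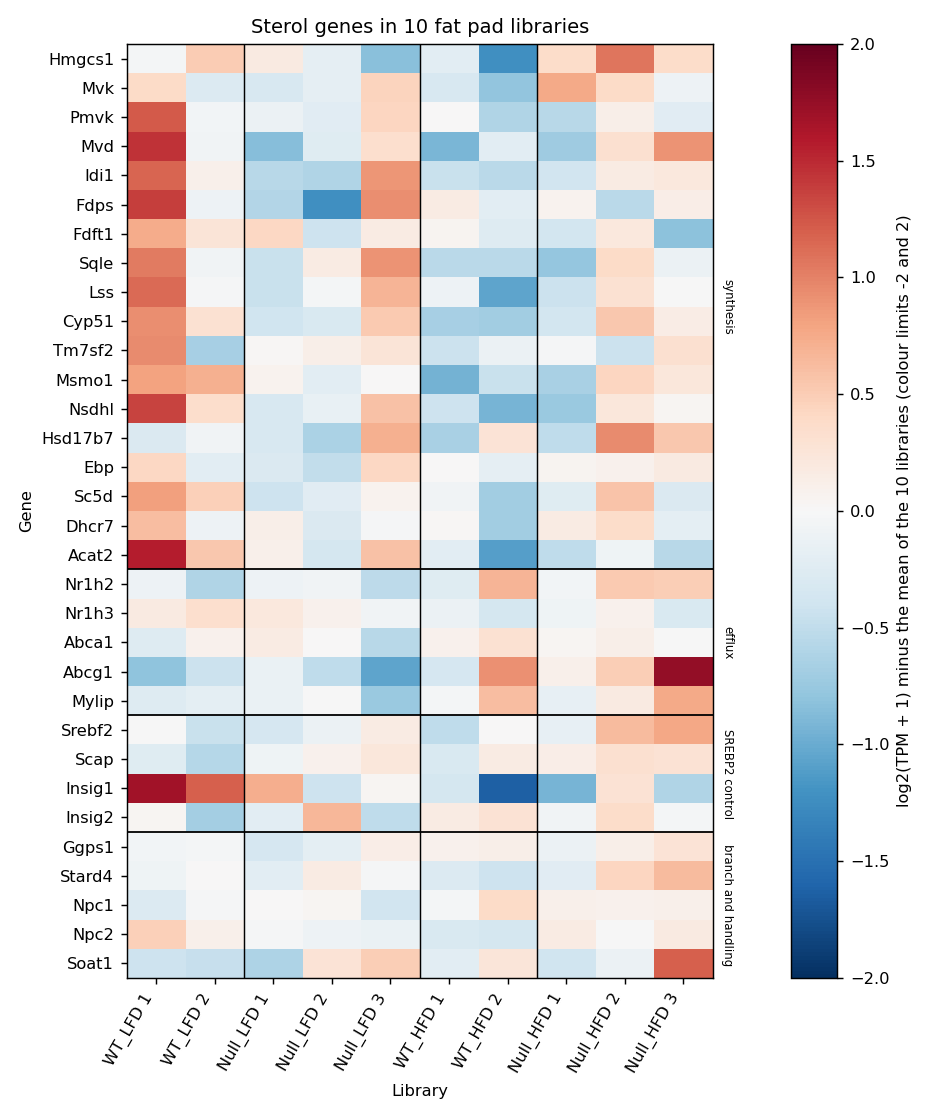
Levels of the 32 sterol genes (rows, grouped by role) in the 10 libraries (columns, grouped by genotype and diet), as log2(TPM + 1) minus the mean of each gene over the libraries. WT_LFD 1 holds the highest value of 14 of the 18 synthesis enzymes and WT_HFD 2 the lowest of 9, while Abcg1 and Soat1 are highest in Null_HFD 3.

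**Figure D2:**
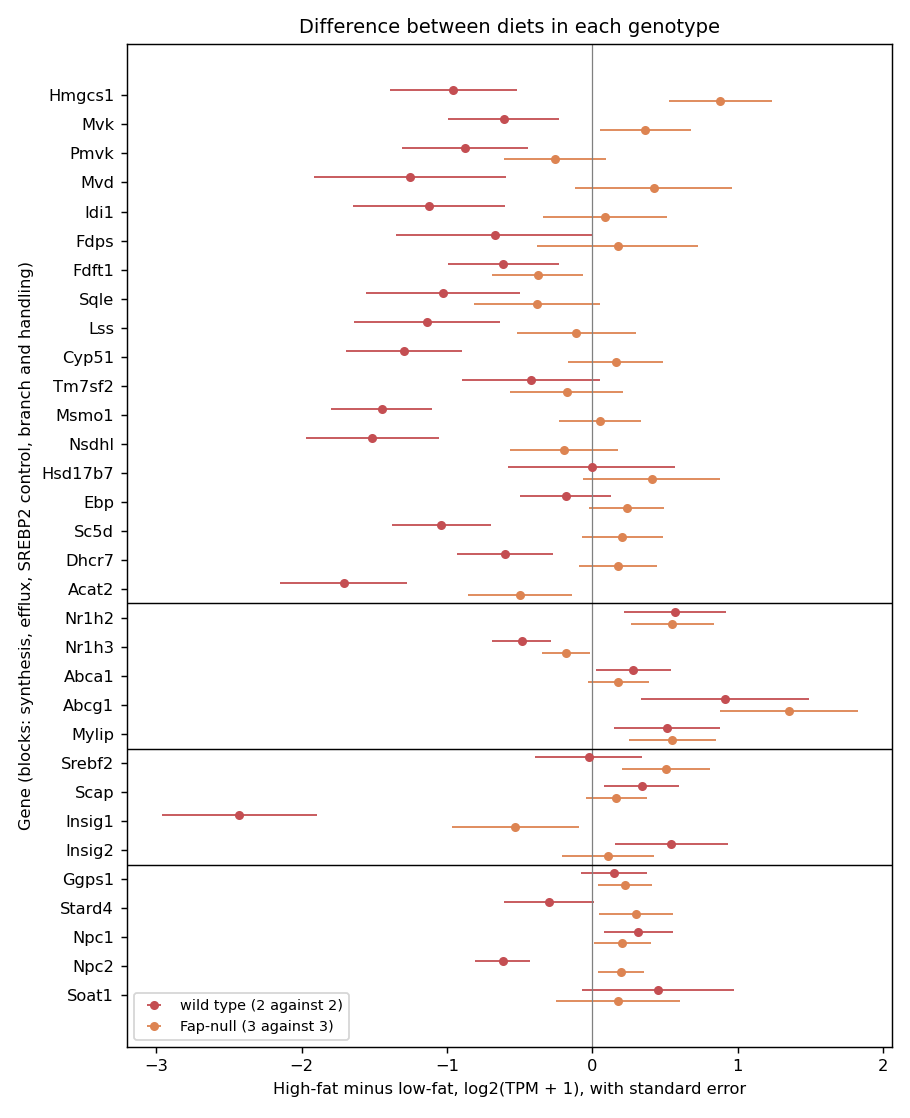
High-fat minus low-fat difference of each gene on the log2(TPM + 1) scale, with its standard error from limma, in wild type (red, 2 against 2 libraries) and FAP-/- (orange, 3 against 3). All 18 wild-type synthesis points lie at or below 0, from -1.71 for Acat2 to -0.18 for Ebp and practically 0 for Hsd17b7, and the FAP-/- points lie on both sides of 0.

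Among the enzymes that lead to mevalonate and activate it, the cytosolic thiolase Acat2, which joins acetyl-CoA units, measured 149.8 and 72.3 TPM in WT_LFD, 53.5, 38.9 and 75.1 TPM in Null_LFD, 42.9 and 22.5 TPM in WT_HFD and 34.7, 46.9 and 33.4 TPM in Null_HFD. Both WT_HFD libraries lay below both WT_LFD libraries, and WT_HFD 2 was the lowest of the 10. Its diet difference in wild type was not called (log2 difference -1.71, SE 0.44, limma adjusted p = 0.761), nor was that averaged over the genotypes (log2 difference -1.10, SE 0.28, limma adjusted p = 0.513) or the genotype difference on the low-fat diet (log2 difference -0.94, SE 0.40, limma adjusted p = 0.949). Without WT_LFD 1 the last of these was -0.42, and without WT_LFD 2 it was -1.46. Hmgcs1, which encodes the cytosolic HMG-CoA synthase and was the most abundant enzyme of the arm, measured 136 and 199 TPM in WT_LFD, 158, 122 and 77.8 TPM in Null_LFD, 120.0 and 59.2 TPM in WT_HFD and 179.9, 293 and 180.1 TPM in Null_HFD. Unlike the other 17 enzymes it separated the diets in FAP-/- pads, since the 3 Null_HFD libraries were above every Null_LFD and every WT_HFD library. The genotype difference on the high-fat diet was 1.32 (SE 0.40, limma adjusted p = 1.00) and the diet difference in FAP-/- was 0.88 (SE 0.35, limma adjusted p = 0.715). Without WT_HFD 2 the former was 0.81.

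Mevalonate kinase, Mvk, measured 24.9 and 15.5 TPM in WT_LFD, 14.9, 16.4 and 26.0 TPM in Null_LFD, 14.9 and 10.5 TPM in WT_HFD and 32.4, 24.9 and 17.5 TPM in Null_HFD. The Null_HFD libraries lay above both WT_HFD libraries, and the Null_LFD and WT_LFD libraries overlapped (log2 difference 0.90, SE 0.35, limma adjusted p = 1.00 on the high-fat diet). Pmvk, the phosphomevalonate kinase gene, ran from 27.3 TPM in WT_HFD 2 to 99.3 TPM in WT_LFD 1, with the next highest value at 57.1 TPM in Null_LFD 3. Mvd, the mevalonate diphosphate decarboxylase gene and the least abundant of the arm, ran from 2.34 TPM in WT_HFD 1 to 16.3 TPM in WT_LFD 1, with WT_HFD at 2.34 and 4.48 TPM.

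From isoprenoids to lanosterol the low-fat groups were widely spread. Idi1, the isopentenyl diphosphate isomerase gene, measured 45.4 and 21.3 TPM in WT_LFD, 13.2, 12.7 and 37.4 TPM in Null_LFD, 14.2 and 13.3 TPM in WT_HFD and 15.0, 22.2 and 23.0 TPM in Null_HFD. WT_LFD 1 and Null_LFD 3 were its 2 highest libraries, and the other 8 lay at or below 23.0 TPM. Sqle, the gene of squalene epoxidase, a flux-controlling oxygenase, measured 27.3 and 12.1 TPM in WT_LFD, 9.07, 14.4 and 24.7 TPM in Null_LFD, 8.46 and 8.48 TPM in WT_HFD and 6.99, 16.8 and 11.7 TPM in Null_HFD. The same 2 libraries were highest for Sqle, for the lanosterol synthase gene Lss (58.4 and 42.5 TPM, others 12.0 to 32.4 TPM) and for the farnesyl diphosphate synthase gene Fdps (45.8 and 33.1 TPM, others 6.65 to 19.0 TPM). Fdft1, the squalene synthase gene, ran from 13.3 TPM in Null_HFD 3 to 41.2 TPM in WT_LFD 1. The diet differences in wild type were -1.12 for Idi1, -1.02 for Sqle, -1.14 for Lss, -0.67 for Fdps and -0.61 for Fdft1, none of them called. All 5 were smaller in size without WT_LFD 1, at -0.60, -0.47, -0.56, 0.071 and -0.37, and Fdps changed sign. Without WT_LFD 2 Sqle was at -1.58, Lss at -1.71 and Fdps at -1.41, and without WT_HFD 2 Lss was at -0.66.

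Among the enzymes that turn lanosterol into cholesterol, Msmo1, the methylsterol monooxygenase gene, kept both low-fat wild-type libraries close together. It measured 45.8 and 42.7 TPM in WT_LFD, 27.0, 22.0 and 26.0 TPM in Null_LFD, 12.9 and 18.7 TPM in WT_HFD and 16.1, 35.1 and 30.4 TPM in Null_HFD. Both WT_LFD libraries were above every other library, and this separation did not rest on WT_LFD 1 alone. Msmo1 lay lower on the high-fat diet in wild type (log2 difference -1.45, SE 0.35, limma adjusted p = 0.761) and lower in FAP-/- than in wild type on the low-fat diet (log2 difference -0.80, SE 0.32, limma adjusted p = 0.949). On the high-fat diet its genotype difference had the other sign (log2 difference 0.70, SE 0.32, limma adjusted p = 1.00; without WT_HFD 1 it was 0.45). Its interaction had the smallest p of the 32 genes (log2 difference 1.50, SE 0.45, limma adjusted p = 1.00), and it lay between 1.25 and 1.83 under the alternatives, each left-out library included. Nsdhl, the sterol dehydrogenase gene that acts in the same demethylation, measured 56.6 and 27.9 TPM in WT_LFD, 17.1, 19.5 and 32.9 TPM in Null_LFD, 16.1 and 10.9 TPM in WT_HFD and 12.6, 25.6 and 22.3 TPM in Null_HFD. The wild-type diet groups did not overlap (log2 difference -1.51, SE 0.46, limma adjusted p = 0.761), and the FAP-/- diet groups did. Sc5d, the lathosterol oxidase gene, measured 145 and 114 TPM in WT_LFD, 60.4, 69.1 and 85.2 TPM in Null_LFD, 76.8 and 49.8 TPM in WT_HFD and 68.3, 122 and 66.0 TPM in Null_HFD. Every Null_LFD library lay below both WT_LFD libraries (log2 difference -0.85, SE 0.31, limma adjusted p = 0.949), and Null_HFD 2 lay between the 2 WT_LFD libraries.

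The lanosterol demethylase gene Cyp51 measured 27.5 and 17.5 TPM in WT_LFD and 8.51 and 8.26 TPM in WT_HFD, and 10.5, 11.2 and 20.7 TPM in Null_LFD and 10.7, 20.8 and 15.6 TPM in Null_HFD. The diets were apart in wild type and overlapped in FAP-/-. The remaining enzymes of these steps are given by range. Dhcr7, the reductase gene of the last step, ran from 19.8 to 50.7 TPM, the sterol isomerase gene Ebp from 34.8 to 66.6 TPM, the sterol reductase gene Tm7sf2 from 5.89 to 19.9 TPM and the ketosteroid reductase gene Hsd17b7 from 4.55 to 15.8 TPM. For these 4 the groups overlapped in both diet comparisons.

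**Figure D3:**
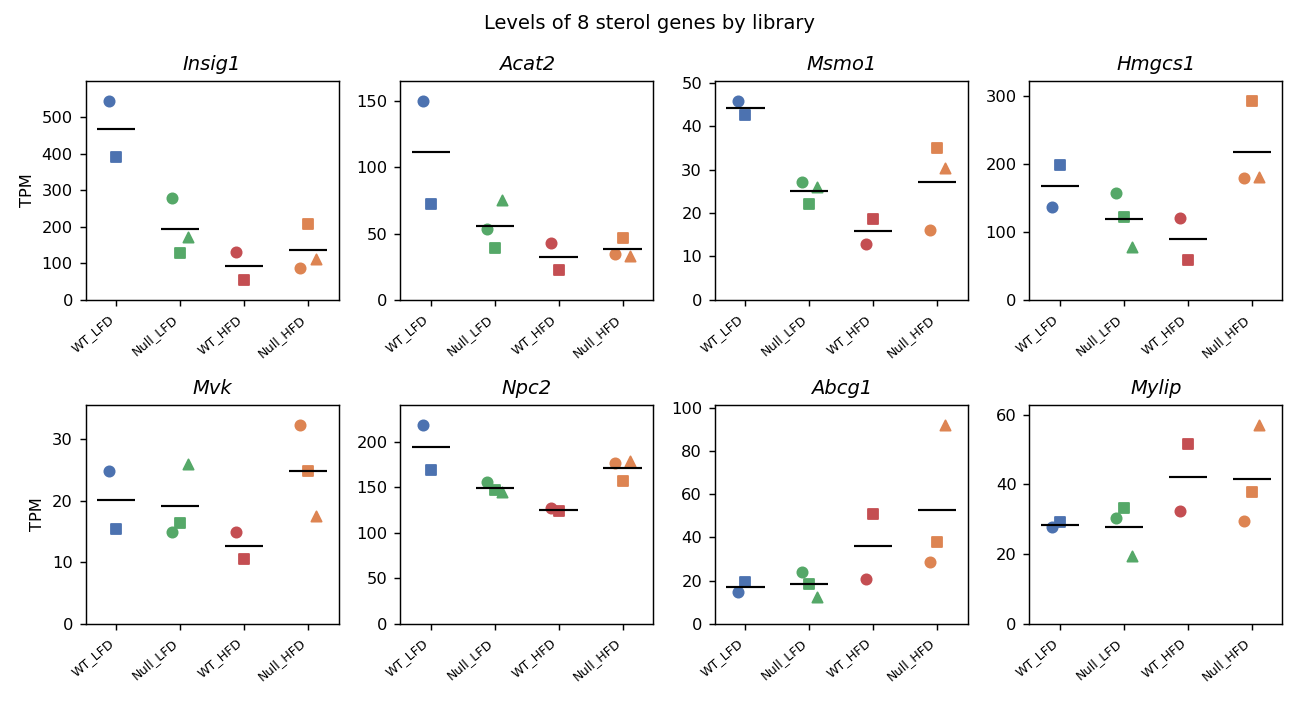
TPM of 8 sterol genes in every library, by group, with the group mean as a bar (circle, square and triangle for replicates 1, 2 and 3). Insig1, Acat2 and Msmo1 have their highest means in WT_LFD, Hmgcs1 has its highest mean in Null_HFD, and Abcg1 and Mylip are highest in WT_HFD 2 and Null_HFD 3.

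Genotype differences in the synthesis arm had opposite signs on the 2 diets, with no gene called. These comparisons share their samples with the diet comparisons above. On the low-fat diet 17 of 18 enzymes had lower means in FAP-/- pads (median -0.53, all genes 0.15), and on the high-fat diet 16 of 18 had higher means (median 0.47, all genes 0.02). Of all genes, 66.9% had higher means in FAP-/- pads on the low-fat diet and 52.1% on the high-fat diet. On the low-fat diet the Null libraries lay wholly below wild type for 2 enzymes (Msmo1 and Sc5d) and wholly above for none, against 6.3% and 19.1% of all genes. On the high-fat diet they lay wholly above for 5 (Hmgcs1, Mvk, Idi1, Cyp51 and Ebp) and wholly below for none, against 7.73% and 7.78% of all genes. The low-fat median was -0.19 without WT_LFD 1 (11 of 18 lower) and -0.91 without WT_LFD 2. The high-fat median was 0.31 without WT_HFD 2 and 0.24 without both lymph node-rich libraries, each with 14 of 18 higher. On the low-fat diet the genotypes overlapped in mature adipocyte markers (15922 and 22312 TPM in WT_LFD, 11969 to 19563 TPM in Null_LFD) and in lymph node markers. They did not overlap in markers of luminal epithelium (351 and 938 against 1219 to 2917 TPM), skeletal muscle (1780 and 2493 against 3025 to 8820 TPM) or macrophages (511 and 556 against 573 to 847 TPM), all higher in Null_LFD. On the high-fat diet they did not overlap in luminal markers (1023 and 1381 TPM in WT_HFD, 286 to 928 TPM in Null_HFD) and overlapped in the other 4 lists. Genes of the mitochondrial genome held 10.6% and 13.8% of TPM in WT_LFD and 6.28% to 9.19% in Null_LFD. The genotypes overlapped in this share on the high-fat diet. The part of the markers and of the mitochondrial share in the genotype differences was not tested.

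Of the genes that control SREBP2, Insig1 differed most. INSIG1 retains SCAP when sterol is plentiful, and its gene is itself a target of SREBP. Insig1 was the most abundant of the 32 genes and measured 545 and 390.3 TPM in WT_LFD, 279.5, 127 and 173 TPM in Null_LFD, 133 and 54.1 TPM in WT_HFD and 88.6, 207 and 111 TPM in Null_HFD. Both WT_LFD libraries were above all 8 others, WT_HFD 2 was the lowest, and the FAP-/- diet groups overlapped. The wild-type diet difference had the smallest p of the 32 genes in that comparison and was not called (log2 difference -2.43, SE 0.53, limma adjusted p = 0.761). Neither was that averaged over the genotypes (log2 difference -1.48, SE 0.34, limma adjusted p = 0.513) or the genotype difference on the low-fat diet (log2 difference -1.32, SE 0.49, limma adjusted p = 0.949). Without both lymph node-rich libraries the wild-type value was -1.79. Insig2, the other retention gene, did not follow it, with a wild-type diet difference of 0.54 (SE 0.39) and a range of 24.0 to 62.3 TPM. The Insig2 difference was 0.91 without WT_LFD 1, 0.18 without WT_LFD 2 and 0.34 after median-of-ratios scaling.

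Srebf2, the gene of SREBP2, measured 12.6 and 9.01 TPM in WT_LFD, 9.84, 11.5 and 14.4 TPM in Null_LFD, 8.55 and 12.7 TPM in WT_HFD and 11.1, 20.0 and 22.4 TPM in Null_HFD. Its 2 highest libraries were Null_HFD 2 and 3, and the genotype groups overlapped on both diets (log2 difference 0.40, SE 0.24, limma adjusted p = 0.980 averaged over the diets). Scap, the escort gene, measured 11.6 and 9.02 TPM in WT_LFD, 13.1, 15.0 and 16.5 TPM in Null_LFD, 11.1 and 15.7 TPM in WT_HFD and 15.3, 17.6 and 17.2 TPM in Null_HFD. All 3 Null_LFD libraries lay above both WT_LFD libraries, a separation in a direction in which 19.1% of all genes separated. Averaged over the diets the Scap difference was 0.40 (SE 0.16, limma adjusted p = 0.980), and 0.33 after median-of-ratios scaling. The diet differences in wild type were -0.03 for Srebf2 and 0.34 for Scap, and both turned on single libraries. Srebf2 was at -0.29 without WT_HFD 2, -0.25 without WT_LFD 2, 0.24 without WT_HFD 1 and 0.19 without WT_LFD 1. Scap was at 0.11 without WT_HFD 2, 0.17 without WT_LFD 2, 0.57 without WT_HFD 1 and 0.14 after median-of-ratios scaling.

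In the efflux arm 4 of 5 genes had higher means on the high-fat diet in both genotypes. Of all genes, 67.1% did so in wild type and 54.9% in FAP-/-. The efflux median was 0.51 in wild type (all genes 0.20) and 0.55 in FAP-/- (all genes 0.04), and the interaction median was 0.04 (-0.21 without WT_HFD 1 and 0.36 without WT_HFD 2). None of the 5 was called. The WT_HFD libraries lay wholly above WT_LFD for Abca1, Abcg1 and Mylip (Abca1 by less than 1 TPM) and wholly below for Nr1h3, where 33.7% and 11.5% of all genes separated. In FAP-/- pads Nr1h2 and Abcg1 lay wholly above, against 6.6% of all genes, and none lay wholly below, against 4.49%. Without WT_HFD 2 the wild-type median was 0.17, and without WT_HFD 1 it was 0.84. The FAP-/- median was 0.30 without Null_HFD 3 and 0.33 without Null_LFD 3, and without both lymph node-rich libraries the medians were 0.17 in wild type and 0.30 in FAP-/-. Between genotypes the efflux median was -0.05 on the low-fat and 0.11 on the high-fat diet, and the former was 0.17 without Null_LFD 3, while the latter was -0.26 without WT_HFD 1 and 0.29 without WT_HFD 2.

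Abcg1, which encodes an exporter of sterol to mature lipoprotein particles, measured 14.7 and 19.4 TPM in WT_LFD, 24.2, 18.2 and 12.2 TPM in Null_LFD, 20.8 and 50.9 TPM in WT_HFD and 28.4, 37.7 and 92.4 TPM in Null_HFD. Null_HFD 3 was highest and WT_HFD 2 next, the 2 libraries with 1733 and 694 TPM of lymph node markers. Their macrophage markers summed to 1789 and 897 TPM, of which Lyz2 alone held 1510 and 631 TPM. The diet difference in FAP-/- was the largest of the 32 genes there (log2 difference 1.35, SE 0.47, limma adjusted p = 0.715), and it was 0.86 without Null_HFD 3, when Null_HFD 1 and 2 still lay above all 3 Null_LFD libraries. Mylip, the gene of the ligase that degrades lipoprotein receptors, measured 27.6 and 29.1 TPM in WT_LFD, 30.4, 33.2 and 19.5 TPM in Null_LFD, 32.5 and 51.5 TPM in WT_HFD and 29.6, 38.0 and 57.2 TPM in Null_HFD. Its 2 highest libraries were the same, and the other 8 lay between 19.5 and 38.0 TPM. Its diet difference in FAP-/- (log2 difference 0.55, SE 0.30, limma adjusted p = 0.779) was 0.30 without Null_HFD 3 and 0.33 without Null_LFD 3, and 0.27 with libraries weighted by their quality. Nr1h2, the gene of LXR-beta, measured 46.3 and 32.4 TPM in WT_LFD, 46.4, 47.3 and 34.4 TPM in Null_LFD, 41.8 and 80.3 TPM in WT_HFD and 47.8, 71.9 and 70.7 TPM in Null_HFD. Here Null_HFD 2, which is poor in lymph node markers (30.7 TPM), lay with the 2 lymph node-rich libraries (log2 difference 0.55, SE 0.29, limma adjusted p = 0.773; 0.46 without both of them). The part of lymph node or macrophage content in these differences was not tested.

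Abca1, the gene of the exporter to lipid-poor apolipoprotein, was the most abundant of the arm and varied little. It measured 89.5 and 113 TPM in WT_LFD, 119, 108 and 72.1 TPM in Null_LFD, 113 and 132 TPM in WT_HFD and 109.6, 116 and 106 TPM in Null_HFD. Null_LFD 3 was lowest and WT_HFD 2 highest, with a wild-type diet difference of 0.28 (SE 0.26). It was 0.17 without WT_HFD 2, 0.11 and 0.45 without WT_LFD 1 and 2, and 0.07 after median-of-ratios scaling. Nr1h3, the gene of LXR-alpha, went the other way. It measured 71.7 and 79.5 TPM in WT_LFD, 73.4, 67.2 and 60.2 TPM in Null_LFD, 58.3 and 49.3 TPM in WT_HFD and 59.5, 67.0 and 51.0 TPM in Null_HFD. Both WT_LFD libraries were above both WT_HFD libraries, with a difference of -0.49 (SE 0.20), and the lymph node-rich libraries WT_HFD 2 and Null_HFD 3 were its 2 lowest. For Nr1h2 the wild-type diet difference was 0.57, and it rested on WT_HFD 2: it was 0.10 without that library, 1.03 without WT_HFD 1, 0.32 without WT_LFD 2 and 0.36 after median-of-ratios scaling.

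**Figure D4:**
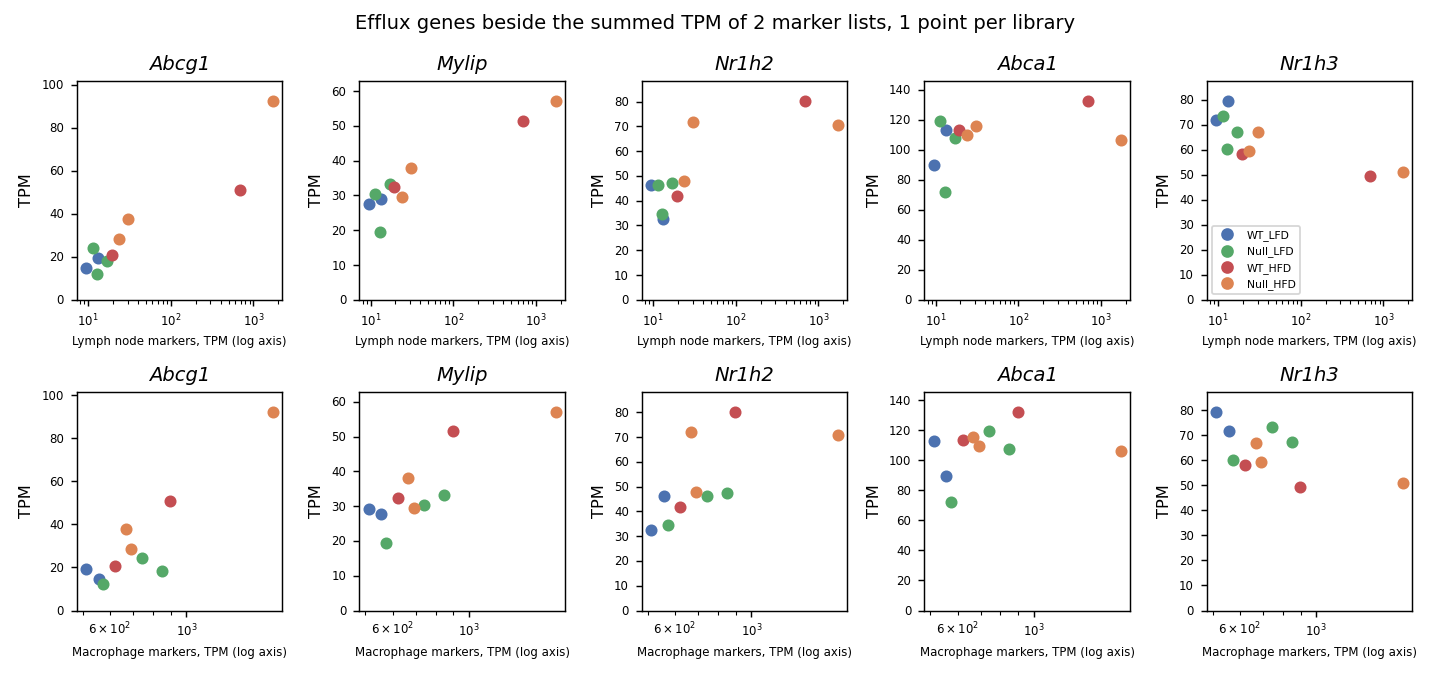
TPM of the 5 efflux genes against the summed TPM of the lymph node markers (upper row) and of the macrophage markers (lower row, both on log axes), 1 point per library coloured by group. Abcg1 and Mylip are highest in the 2 libraries with 694 and 1733 TPM of lymph node markers, and Nr1h3 is lowest there.

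Set against each other, the synthesis arm lay lower relative to the efflux arm on the high-fat diet in wild-type pads. In FAP-/- pads the group means went the same way, but this rested on Null_LFD 3. The synthesis score of a library is the mean of its 18 enzymes on the log2(TPM + 1) scale, centred on the 10 libraries, and the efflux score is the same over 5 genes. Synthesis minus efflux averaged 0.69 ± 0.61 (SD, n = 2) in WT_LFD, 0.18 ± 0.70 (SD, n = 3) in Null_LFD, -0.59 ± 0.57 (SD, n = 2) in WT_HFD and -0.25 ± 0.25 (SD, n = 3) in Null_HFD. By library it was 1.12 and 0.25 in WT_LFD, -0.24, -0.21 and 0.98 in Null_LFD, -0.19 and -0.99 in WT_HFD and -0.23, 0.00 and -0.50 in Null_HFD. Both WT_LFD libraries were above both WT_HFD libraries, whereas Null_LFD 1 and 2 lay within the range of Null_HFD and only Null_LFD 3 lay above it. In order of their means the groups ran WT_LFD, Null_LFD, Null_HFD and WT_HFD, and the ranges of neighbours in that order overlapped. In summed TPM the synthesis enzymes ran from 362 TPM in WT_HFD 2 to 1062 TPM in WT_LFD 1, and the efflux genes from 198 TPM in Null_LFD 3 to 378 TPM in Null_HFD 3. WT_HFD 2 was the 1 library in which the 5 efflux genes (364 TPM) summed to more than the 18 enzymes.

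The difference between diets in synthesis minus efflux was -1.27 in wild type and -0.43 in FAP-/-. The wild-type value was -0.84 without WT_LFD 1, -1.71 without WT_LFD 2, -1.67 without WT_HFD 1 and -0.87 without WT_HFD 2, so its sign held without each of them. The interaction was 0.85, and 0.42, 1.28 and 0.45 without WT_LFD 1, WT_LFD 2 and WT_HFD 2. The FAP-/- value was -0.02 without Null_LFD 3 and -0.30 without both lymph node-rich libraries. The genotype difference was -0.50 on the low-fat diet, and ranged from -0.94 without WT_LFD 2 to -0.07 without WT_LFD 1 as single libraries were left out (-0.30, -0.31 and -0.91 without each Null_LFD library). It was 0.34 on the high-fat diet, and 0.74, -0.06 and 0.22 without WT_HFD 1, WT_HFD 2 and Null_HFD 2. As a score over genes listed with earlier results of these data known, it was given no test.

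**Figure D5:**
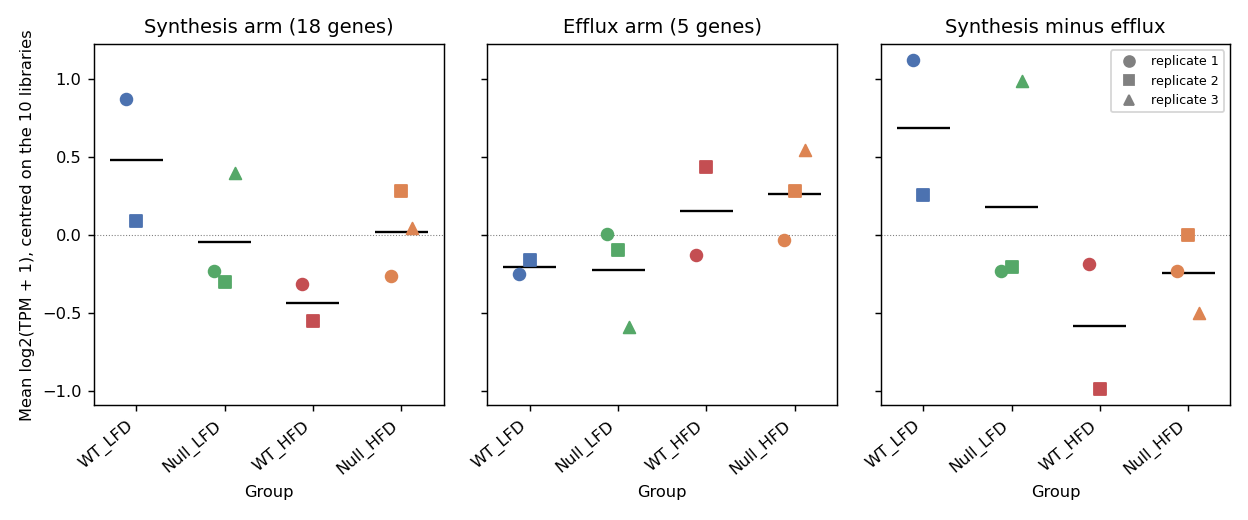
Score of the synthesis arm, of the efflux arm and of their difference in each library, as the mean log2(TPM + 1) of the genes centred on the 10 libraries, with group means as bars. WT_LFD 1 (1.12) and Null_LFD 3 (0.98) have the highest difference, and WT_HFD 2 (-0.99) the lowest.

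Among the genes of sterol handling, Npc2 separated most of the groups. Npc2, which encodes the lysosomal protein that hands cholesterol to NPC1, measured 219 and 169 TPM in WT_LFD, 156, 147 and 144 TPM in Null_LFD, 127 and 123 TPM in WT_HFD and 176, 157 and 179 TPM in Null_HFD. The ranges ran WT_HFD, Null_LFD and WT_LFD from low to high without overlap, and the Null_HFD range overlapped that of WT_LFD and lay above those of Null_LFD and WT_HFD. Of all genes, 6.3% lay wholly lower in Null_LFD than in WT_LFD and 7.73% wholly higher in Null_HFD than in WT_HFD. Between diets 11.5% lay wholly lower on the high-fat diet in wild type, and 6.6% wholly higher in FAP-/-. The genotype difference was -0.37 (SE 0.17) on the low-fat diet (-0.19 without WT_LFD 1) and 0.44 (SE 0.17, limma adjusted p = 1.00) on the high-fat diet. Its interaction ranked next to that of Msmo1 among the 32 genes (log2 difference 0.81, SE 0.25, limma adjusted p = 1.00). Npc1, the lysosomal membrane exporter gene, varied less, at 17.9 and 21.6 TPM in WT_LFD, 22.1, 22.4 and 16.5 TPM in Null_LFD, 21.3 and 28.7 TPM in WT_HFD and 23.5, 23.4 and 23.4 TPM in Null_HFD. Its Null_HFD libraries lay just above the Null_LFD ones, with a diet difference of 0.21 (SE 0.19) that was 0.07 without Null_LFD 3.

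Soat1, the gene of the enzyme that esterifies cholesterol for storage, measured 25.5 and 24.7 TPM in WT_LFD, 22.0, 41.8 and 48.6 TPM in Null_LFD, 29.6 and 40.7 TPM in WT_HFD and 25.8, 31.5 and 80.2 TPM in Null_HFD. Null_HFD 3, with the highest sums of macrophage markers (mostly Lyz2) and of lymph node markers, stood highest. The groups overlapped between genotypes on the high-fat diet and between diets in FAP-/-. Stard4, the gene of a cytosolic sterol carrier, measured 10.3 and 11.1 TPM in WT_LFD, 9.45, 12.6 and 10.8 TPM in Null_LFD, 8.95 and 8.08 TPM in WT_HFD and 9.33, 15.2 and 17.7 TPM in Null_HFD. All 3 Null_HFD libraries were above both WT_HFD libraries by a small margin (log2 difference 0.62, SE 0.28, limma adjusted p = 1.00), and the difference was 0.38 without both lymph node-rich libraries, in a direction in which 7.73% of all genes separated. Ggps1, which makes geranylgeranyl diphosphate on the branch away from sterols, held between 19.8 and 30.9 TPM. Its range was narrower than that of Fdps, whose product it uses (6.65 to 45.8 TPM).

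A list of 30 other sterol genes covered SREBP processing, lipoprotein uptake, sterol transport, LXR partners and targets, and oxysterol enzymes, and none of them was called in any comparison. For diet in wild type 21 of 30 had higher means (median 0.16, all genes 0.20), and in FAP-/- 17 of 30 (median 0.04, all genes 0.04). Of all genes, 67.1% and 54.9% did so. For genotype 18 of 30 were higher on the low-fat and 13 on the high-fat diet, against 66.9% and 52.1% of all genes. These medians lay close to those of all genes, unlike that of the 18 enzymes between diets in wild type. The smallest p for diet in wild type belonged to Lpcat3, a phospholipid-remodelling enzyme gene driven by LXR (log2 difference -0.48, SE 0.18, limma adjusted p = 0.761), and to Nceh1, a cholesteryl ester hydrolase gene (log2 difference 1.17, SE 0.47, limma adjusted p = 0.761). Lpcat3 measured 85.8 and 83.4 TPM in WT_LFD, 53.9 and 67.6 TPM in WT_HFD, 68.7, 67.7 and 69.5 TPM in Null_LFD and 61.0, 65.1 and 54.1 TPM in Null_HFD, so both WT_LFD libraries were above the other 8. In FAP-/- pads the smallest p for diet belonged to Rxra, the partner receptor of LXR, at 33.1, 31.4 and 26.6 TPM in Null_LFD and 54.5, 57.5 and 34.9 TPM in Null_HFD (log2 difference 0.64, SE 0.21, limma adjusted p = 0.715). Pltp, a phospholipid transfer protein gene and LXR target, came next, at 135, 139 and 95.3 against 160.1, 306 and 169 TPM (log2 difference 0.73, SE 0.28, limma adjusted p = 0.715), and its difference was 0.44 without Null_HFD 2. Between genotypes on the low-fat diet these were Lipa, the lysosomal acid lipase gene, at 62.6 and 48.3 TPM in WT_LFD and 134, 142 and 54.4 TPM in Null_LFD (0.87, SE 0.37, and 1.31 without Null_LFD 3), and Nceh1 (0.77, SE 0.43). On the high-fat diet they were Mbtps2, a protease gene that cuts SREBP, at 17.1 and 14.3 TPM in WT_HFD and 21.5, 20.2 and 20.6 TPM in Null_HFD (0.39, SE 0.20), and Erlin1, at 31.0 and 51.4 against 28.4, 32.2 and 26.0 TPM (-0.46, SE 0.25). The Erlin1 difference rested on WT_HFD 2, since it was -0.10 without that library and -0.81 without WT_HFD 1.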

How the data were processed

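RNA of 10 fat pad libraries was sequenced and summarised as transcript abundance (TPM). The authors deposited 1 table with a value per gene symbol and library on a log2 scale, log2(TPM + 1), a unit read from the values, since the lowest is 0 and the TPM sum to 946188 to 954515 per library. The tools kallisto and limma and the build GRCm38 are named, per the submitters' processing notes, with versions not given in the sources used here. Per the labels' protocols the libraries were stranded and depleted of ribosomal RNA. The 1 line without a symbol (0.00544% to 0.0108% of TPM) was left out. Column names matched the sample labels.

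The test covered genes that reached 1 TPM in 2 or more libraries, and all 32 members passed. The 4 group means were fitted with limma 3.58.1 (R 4.3.3) over all 16932 genes with a variance trend and 6 residual degrees of freedom. The two-sided p-values were Benjamini-Hochberg adjusted over all these genes, with a call at 0.05 or below. A difference in log2(TPM + 1) is smaller than the change itself for low genes. Alternatives were another pseudocount, no filter, median-of-ratios scaling, array weights, only the groups compared, the replicate number as a block, other arm summaries and left-out libraries. The fit was tested on simulated data. The members, gene lists, markers and motifs were chosen with earlier results of these data known. Genes given with statistics are the 4 members of smallest p in each within-diet or within-genotype comparison and the 2 of smallest p in the others, with 2 other sterol genes in each of the former. Statistics of further members were added after their values were seen.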

Additional observations from a re-analysis of the deposited data

How the results depend on the processing

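Across the alternatives the limma test called 0 of the 32 members in each of the 7 comparisons (116 refits), with a smallest adjusted p among members of 0.320 to 1. With the replicate number as a block it also called 0 members in every comparison. Same-numbered libraries of different groups correlated between -0.346 and 0.412 (13 pairs, deviations from group means across genes) and differently numbered ones between -0.502 and 0.502. In a group of 2 the deviations mirror each other, so these ranges cannot tell whether the numbers pair the samples. All 22 member differences given with statistics under the rule kept their sign in their 368 refits. Of 374 refits of 22 further differences, added after seeing the data, 3 reversed: with 1 library left out, diet in wild type ranged from -1.41 to 0.071 for Fdps and -0.29 to 0.24 for Srebf2. The averaged genotype difference of Srebf2 was 0.24 with the replicate block against 0.40, and the synthesis median for genotype on the high-fat diet 0.30 against 0.47. Synthesis minus efflux stayed within 1 within-group SD (0.55) of its value in all 119 refits. That SD exceeds the genotype differences and the diet difference in FAP-/-, so staying within it cannot show that these are stable. With 1 library left out, the genotype difference on the high-fat diet went from 0.34 to as low as -0.06. The diet difference in FAP-/- went from -0.43 to as little as -0.02. The wild-type diet difference (-1.27) and the interaction (0.85) kept their sign. Both are larger than that SD, which is a spread of single libraries and not the error of a difference of means. Exceeding it therefore cannot show that they are stable. The interaction was below that SD without WT_LFD 1 and without WT_HFD 2.

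Medians of the arms under other settings were added after seeing the data, and 12 of 180 moved by more than 1 SD, each through left-out libraries. With 1 library left out, the synthesis median ranged from -0.91 to -0.19 for genotype on the low-fat diet, -1.46 to -0.48 for diet in wild type and 0.58 to 1.48 for the interaction. The efflux median ranged from -0.26 to 0.29 for genotype on the high-fat diet, 0.17 to 0.84 for diet in wild type and -0.21 to 0.36 for the interaction. Without both lymph node-rich libraries the synthesis and efflux medians for diet in wild type were -0.62 and 0.17, where the 1 remaining WT_HFD library is assumed to vary like the other groups. Median-of-ratios scaling moved the all-gene median for diet in wild type from 0.20 to 0.02, with the synthesis median at -1.19 and the efflux median at 0.31. It left 0 of 5 efflux genes higher in FAP-/- on the low-fat diet, against 2 of 5, while the wild-type diet counts stayed at 18 of 18 lower and 4 of 5 higher. Fits to only the groups compared were not run for averaged comparisons and the interaction. Groups of 2 limit every wild-type value.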
